A study of Oryctolagus cuniculus with 12 samples.

Results

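Lipoprotein lipase (LPL) and 5 genes that mark fat cells, CIDEA, PLIN1, FABP4, ADIPOQ and CFD, were followed through 12 RNA sequencing libraries of rabbit cornea. LPL was chosen by its measured difference between light groups and control libraries in these same data, and the other 5 genes were set beside it as markers of fat tissue. The question was whether the lower LPL level in the light groups goes with fat tissue in single control libraries. A gene was taken as present where its name stood in the deposited table, which lists 29076 genes. LPL, CIDEA, FABP4 and ADIPOQ were found, 4 of the 6. PLIN1, a protein of the lipid droplet coat, and CFD, the complement protease also called adipsin, were not analysed here.

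The 4 groups of 3 libraries were labelled blue light, GL, RL and control. What the abbreviations GL and RL stand for is not stated, nor are the wavelength and intensity of the light, the strain or the sex. The animals, fed a normal diet, were 6 months of age. A 6-week exposure to light is recorded for all 12 libraries, the control libraries included. The labels do not say whether the libraries of a group came from separate animals, so each p-value measures only the spread between these libraries, which may be technical.

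Lipoprotein lipase is a secreted enzyme that splits the triglycerides of circulating lipoproteins, so that tissues can take up the fatty acids. It is made in large amounts by fat cells, heart and skeletal muscle, and also by macrophages, and it works at the capillary wall. Mature fat cells store triglyceride in a large droplet and secrete hormones such as adiponectin and leptin. The healthy cornea has no blood vessels and no fat tissue of its own, whereas fat lies behind the eye and in the lids.

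Libraries held 40.9 to 64.7 M estimated counts (M, mega). Low counts came in steps of about 3.73, so that 1 sequenced fragment was taken as 3.73 counts, and a floor of 3 fragments was used as the limit of detection. Marker lists of the cornea were high in all libraries: the summed level of the corneal epithelium list was 14362 to 22464 FPKM (fragments scaled by transcript length and by library size) and that of the stromal keratocyte list 16033 to 23493 FPKM. Lens genes were present as well, with sums of 2813 to 22191 FPKM in blue light, 1067 to 4463 FPKM in GL, 943 to 3930 FPKM in RL and 7156 to 11291 FPKM in control libraries. Retinal genes stood out in blue light 1 (94.0 FPKM), GL 3 (260 FPKM) and control 2 (55.8 FPKM), against 4.43 to 19.6 FPKM in the other 9 libraries. The libraries also fell into 2 sets by how many genes had a count of 1 to 20: 2389 to 2563 genes in blue light 1 to 3, RL 1 and control 1, and 767 to 1461 genes in the other 7.

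LPL was the only one of the 4 genes above its detection floor in all 12 libraries. Its levels were 0.504, 1.12 and 0.311 FPKM in blue light, 3.02, 1.23 and 3.39 FPKM in GL, 0.465, 0.844 and 0.333 FPKM in RL, and 1.497, 21.5 and 11.4 FPKM in control libraries. Control 2 and control 3 were far above every other library. Control 1 was not: it lay between the lowest and the highest GL library. All blue light and all RL libraries were below all control libraries, and GL overlapped control, with 2 of the 9 light libraries above control 1. The floor for LPL was 0.0461 to 0.0713 FPKM, and the lowest value, 0.311 FPKM in blue light 3, lay above it.

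**Figure D1:**
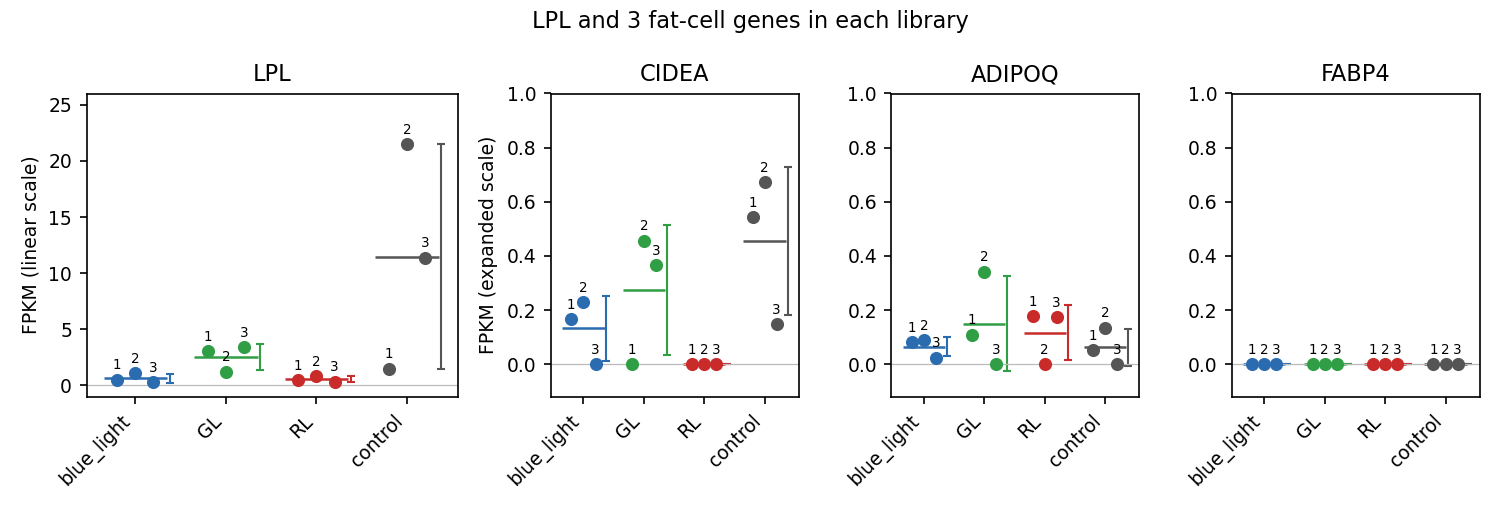
FPKM of LPL, CIDEA, ADIPOQ and FABP4 in each library, by group; numbers at the points are replicate numbers, horizontal lines are group means and bars are 1 SD (n = 3). LPL has its own axis, up to 21.5 FPKM in control 2, whereas the other 3 genes share an axis that ends at 1 FPKM.

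Group means of LPL were 0.644 ± 0.420 FPKM in blue light, 2.55 ± 1.16 FPKM in GL, 0.547 ± 0.266 FPKM in RL and 11.5 ± 10.003 FPKM in control (SD, n = 3 each). The SD of the control group was nearly as large as its mean. In the edgeR fit over all 12 libraries the log2 difference from control was −4.16 (SE 0.84) for blue light, −2.13 (SE 0.77) for GL and −4.32 (SE 0.85) for RL. These differences are a description without a test, because LPL was chosen by them. In bulk tissue, fewer cells of a type and less RNA per cell cannot be told apart.

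The size of the LPL difference rested on 2 control libraries. Control 2 held 14.4 times and control 3 held 7.60 times the FPKM of control 1, and both together made up 95.6% of the summed FPKM of the control group. Control 2 was 6.34 times and control 3 was 3.35 times the highest light library, GL 3. The mean of the control group was 17.8 times that of blue light, 4.50 times that of GL and 20.9 times that of RL. Set against control 1 alone, the same ratios were 2.33 for blue light, 0.588 for GL and 2.74 for RL, so that GL was then the higher group. Without control 2, the fitted log2 differences were −3.31 for blue light, −1.28 for GL and −3.47 for RL.

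Within each of the 2 library sets, every light library lay below every control library for LPL, which was chosen by that difference. The share of all genes with the same separation within the sets was not counted. In the set with more genes at low counts, the 4 light libraries had 0.311 to 1.12 FPKM of LPL and control 1 had 1.497 FPKM. In the other set, the 5 light libraries had 0.333 to 3.39 FPKM, against 11.4 and 21.5 FPKM in control 3 and control 2. Each set holds only 1 or 2 control libraries, and GL occurs in the second set alone, so no test was made within a set. With the set as a term in the fit, an alternative added after seeing the data, the log2 differences were −2.56 for blue light, −2.27 for GL and −3.79 for RL.

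Among the genes tested, 781 (4.3%) had every blue light library below every control library and 1119 (6.16%) had every RL library below every control library. LPL belongs to both groups of genes by the way it was chosen. The edgeR test called 3 of 18171 genes in blue light minus control (0.0165%), 10 in GL minus control (0.055%) and 2 in RL minus control (0.011%) at an adjusted p below 0.05.

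**Figure D2:**
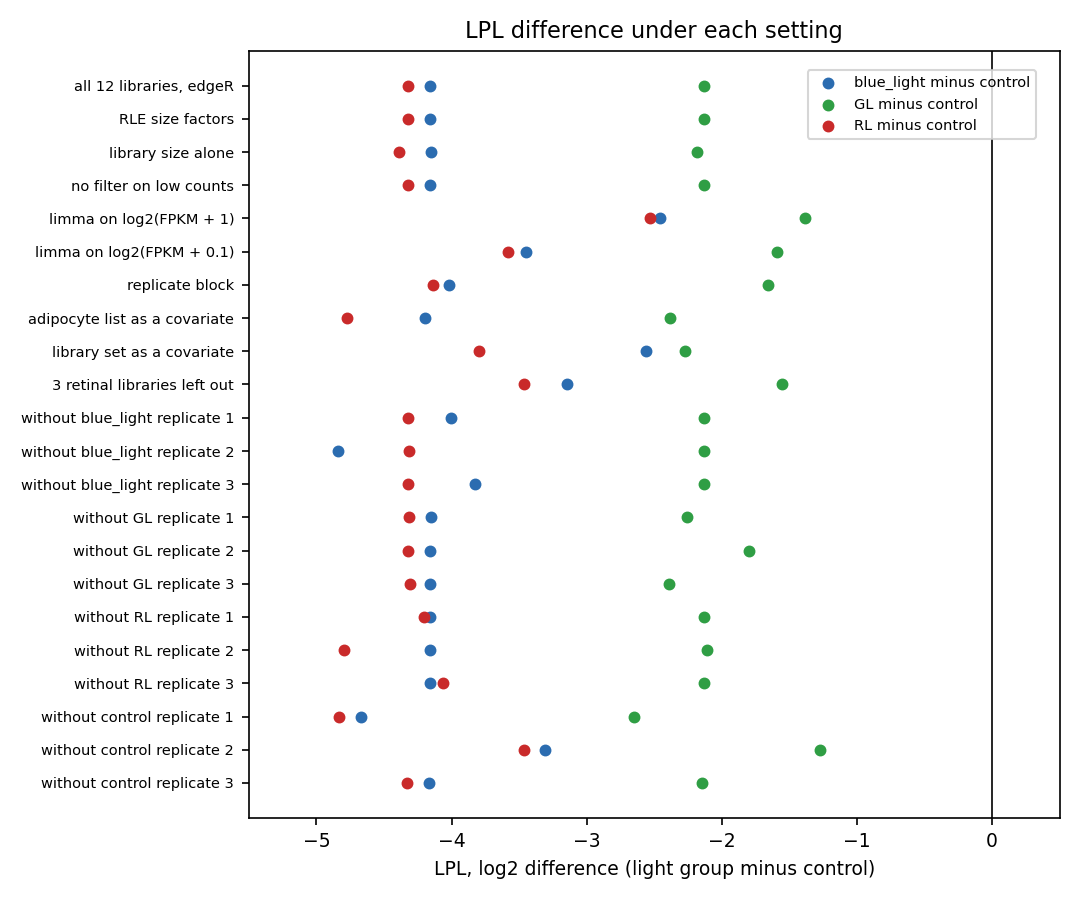
Log2 difference of LPL, each light group minus control, in the edgeR fit of all 12 libraries (top) and under each other setting. All points lie left of 0, and among the fits that leave out 1 library, those without control 2 lie nearest to 0, with −3.31 for blue light, −1.28 for GL and −3.47 for RL.

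The means of the 3 light groups can be compared without that of the controls, a comparison that the choice of LPL did not use. Every GL library lay above every blue light and RL library for LPL, by a small margin: the lowest GL library had 1.23 FPKM and the highest blue light library 1.12 FPKM. The same separation was found for 679 of all genes tested (3.74%). Blue light and RL overlapped. All GL libraries were in the library set with fewer genes at low counts, and all blue light libraries were in the other set. A difference between GL and blue light thus cannot be told apart from one between the sets. With the set as a term in the fit, the edgeR adjusted p among the light groups was 0.765 for LPL. The edgeR test for any difference among blue light, GL and RL gave an adjusted p = 0.452 for LPL (unadjusted p = 0.0167), where 12 genes (0.066%) passed the adjusted and 1878 genes (10.3%) the unadjusted threshold of 0.05. CIDEA and ADIPOQ passed neither. An exact permutation test on log2(FPKM + 1) gave an unadjusted p = 0.0321 for LPL, 1 of 3 genes so tested, where 0.00357 is the smallest p that the 1680 ways of dividing 9 libraries can give. DESeq2 was fitted to the 9 light libraries alone, whereas edgeR and limma took their spread from all 12 libraries, controls included. DESeq2 called 246 genes in this comparison against 12 by edgeR, and put LPL past the threshold with an adjusted p = 0.0237. These results thus differ in libraries as well as in tool. The adjusted p of LPL ran from 0.257 to 1 over the edgeR and limma alternatives.

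CIDEA, a lipid droplet protein known from brown and beige fat of mice, was close to its detection floor of 0.157 to 0.242 FPKM. Its levels were 0.167, 0.229 and 0 FPKM in blue light, 0, 0.456 and 0.367 FPKM in GL, 0 in all 3 RL libraries, and 0.542, 0.673 and 0.149 FPKM in control libraries. It was above the floor in 5 of 12 libraries: blue light 2, GL 2, GL 3, control 1 and control 2. The highest count was 42, in control 2. Control 1, low in LPL, and control 2, the highest in LPL, had similar CIDEA levels, while control 3, the second highest in LPL, was under the CIDEA floor. Among the light groups the exact permutation test gave p = 0.179 for CIDEA.

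ADIPOQ encodes adiponectin, a hormone that mature fat cells secrete in large amounts. It had 0.0814, 0.0893 and 0.0233 FPKM in blue light, 0.109, 0.341 and 0 FPKM in GL, 0.178, 0 and 0.173 FPKM in RL, and 0.0507, 0.135 and 0 FPKM in control libraries. Control 3, with 11.4 FPKM of LPL, thus had an ADIPOQ count of 0. The highest ADIPOQ level was in GL 2 and the groups overlapped throughout. ADIPOQ was above its floor of 0.0606 to 0.0938 FPKM in 6 of 12 libraries, and its highest count was 58. The exact permutation test among the light groups gave p = 0.725 for ADIPOQ.

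FABP4, the fatty acid carrier of fat cells and macrophages, had a count of 0 in all 12 libraries and was not tested. A count of 0 allows up to 3 fragments, which is 0.173 to 0.273 CPM (counts scaled to library size) depending on the library. The 18 housekeeping genes found in the table had no 0 in any library, and their lowest level was 6.82 FPKM. These levels are far above the floor, so the housekeeping genes cannot show why FABP4 was at 0. Whether FABP4 reads were lost in mapping or counting was not tested. Of the 4 genes, 3 passed the filter on low counts; since that filter keeps genes that are high in 1 group alone, the 3 are not a sample of fat-cell genes in general.

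Over all 12 libraries, LPL and CIDEA correlated with Pearson's r = 0.540 (permutation p = 0.0659) and Spearman's rho = 0.631 (permutation p = 0.0328). Both adjusted p-values were 0.249 in a family of 8 coefficients. The 12 libraries carry the difference between light and control by which LPL was chosen, and the permutation ignored the groups. The p-values over 12 libraries are therefore not free of that choice. Without control 1 and control 2, the 2 libraries farthest from the CIDEA median, r was 0.297. Control 3, high in LPL, was kept there. Over the 9 light libraries r was 0.431 (permutation p = 0.234) and rho 0.602 (permutation p = 0.0933, adjusted p = 0.249). Without GL 2 and GL 3, the 2 light libraries farthest from the CIDEA median, r was 0.0293. For LPL and ADIPOQ over all 12 libraries r was −0.158 (permutation p = 0.615) and rho −0.197 (permutation p = 0.537). Counts of CIDEA and ADIPOQ were at most 42 and 58, and neither relation passed the adjusted threshold.

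A longer list of 25 other fat-cell genes was then examined, of which 20 were found. Leptin (LEP), resistin (RETN) and PCK1, the rate-limiting enzyme of glyceroneogenesis in fat, had a count of 0 in all 12 libraries. CD36, the fatty acid transporter, was at 0 in 11 of 12 libraries with 0.00712 FPKM in blue light 3. AQP7, the glycerol channel of fat cells, was above 0 in blue light 2 alone, with 0.0647 FPKM. PPARG, the transcription factor that drives fat cell formation, had at most 0.676 FPKM, in GL 2; it was at 0.180, 0.366 and 0 FPKM in control 1, 2 and 3.

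CIDEC, which builds the single large droplet of white fat cells, ran between 0 and 1.07 FPKM in the light libraries and was 0.966, 0.818 and 2.23 FPKM in control libraries. It was highest in control 3, whereas control 1 and control 2 lay inside the light range. LIPE, the hormone-sensitive lipase, had 3.14 to 5.65 FPKM in blue light, 4.42 to 4.92 FPKM in GL, 3.24 to 5.05 FPKM in RL and 3.59 to 5.30 FPKM in control libraries, with full overlap. GLUT4 (SLC2A4), the insulin-responsive glucose transporter, had 0.918 to 1.98 FPKM in blue light, 0.285 to 4.34 FPKM in GL and 1.16 to 2.45 FPKM in RL, against 1.05, 0.365 and 2.01 FPKM in control 1, 2 and 3. The 2 control libraries high in LPL thus lay on either side of control 1.

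Genes of the list that other cells also use carried nearly all of its summed level. The sum was 62.9 to 95.1 FPKM in blue light, 82.0 to 86.1 FPKM in GL, 88.5 to 108.4 FPKM in RL and 65.8 to 88.4 FPKM in control libraries. The 2 control libraries with high LPL had the lower sums, 65.8 FPKM in control 2 and 70.9 FPKM in control 3, against 88.4 FPKM in control 1. ACSL1, an acyl-CoA synthetase, THRSP, a regulator of fatty acid synthesis, CEBPA, a transcription factor, and GPAM, the first enzyme of glycerolipid synthesis, were the leading genes. THRSP had 30.9, 8.41 and 21.9 FPKM in blue light, 9.39, 12.3 and 9.98 FPKM in GL, 49.0, 24.0 and 33.5 FPKM in RL, and 28.7, 12.2 and 8.11 FPKM in control libraries, so it was low in control 2 and 3 where LPL was high.

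**Figure D3:**
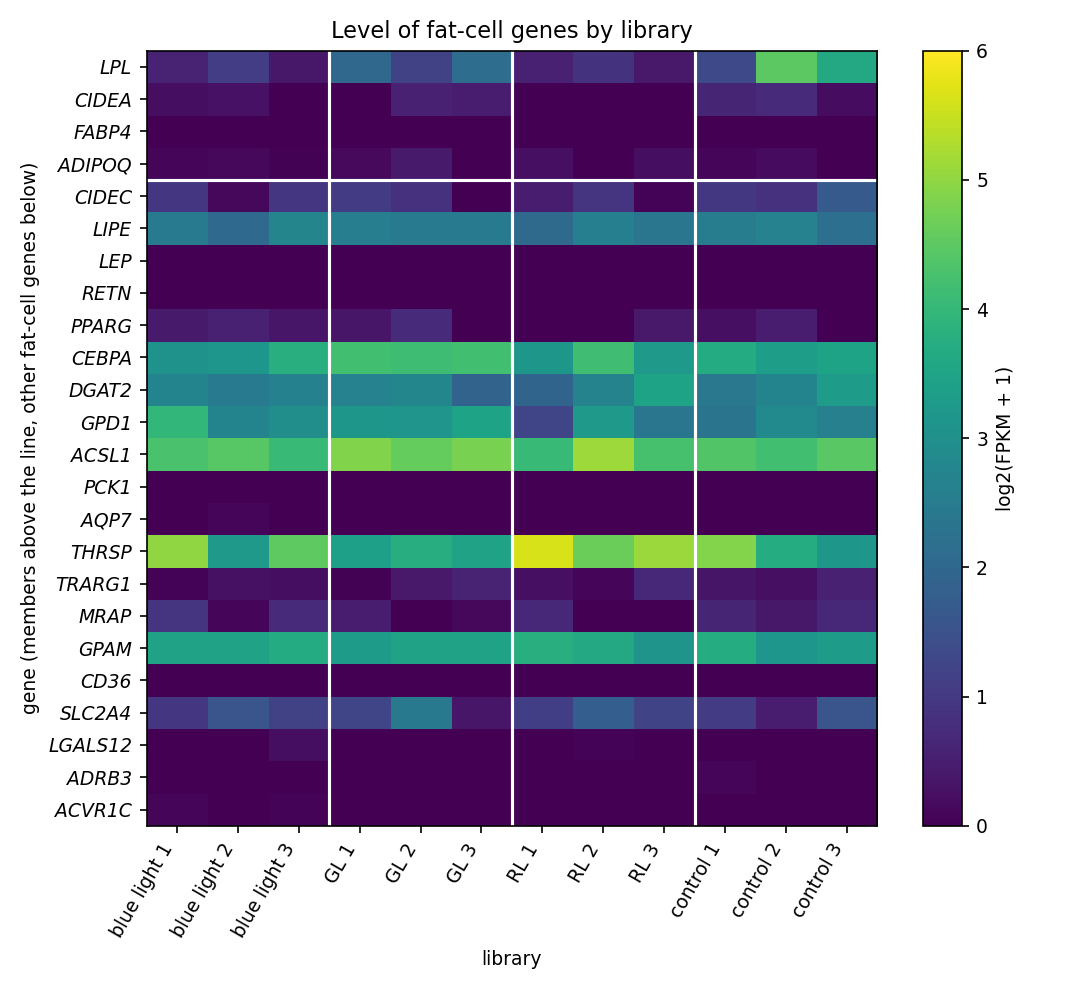
Level of the 4 chosen genes (above the white line) and of 20 other fat-cell genes (below it) in each library, as log2(FPKM + 1) on the colour scale. Control 2 and control 3 are bright for LPL, while FABP4, LEP, RETN and PCK1 are at 0 in all 12 columns.

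Of the 12 genes of this list that could be tested, the edgeR test called 0 in every comparison, and limma also called 0. At an unadjusted p below 0.05 there were 0 in blue light minus control (3.26% of all genes tested), 1 in GL minus control (8.1%), 1 in RL minus control (4.74%) and 2 among the light groups (10.3%). DESeq2 called THRSP among the light groups, as 1 of 246 genes that it called there. The median log2 difference of the list was 0.06 in blue light, 0.07 in GL and 0.03 in RL, beside 0.01, −0.02 and 0.00 for all genes tested. With the mean level of these 12 genes as a covariate, the log2 difference of LPL was −4.20 for blue light, −2.39 for GL and −4.78 for RL. That mean was 2.66, 2.44 and 2.48 log2 CPM in control 1, 2 and 3 and includes genes that other cells also use, so it is not a measure of fat tissue.

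Genes of brown fat were described by a list of 14, of which 13 were found. UCP1, the uncoupling protein of brown fat, had a count in 1 library, control 1, at 0.0366 FPKM. TBX1 was at 0 in all 12 libraries. PRDM16, a regulator of brown fat identity, was at 0.390 FPKM in control 2 and 0.143 FPKM in control 3 and at most 0.0335 FPKM elsewhere; it did not pass the filter on low counts and is named here after its values were seen. CPT1B, the muscle and brown fat carnitine palmitoyltransferase, had 7.50, 8.88 and 8.24 FPKM in blue light, 5.78, 6.99 and 5.30 FPKM in GL, 6.92, 2.18 and 6.75 FPKM in RL, and 10.2, 12.6 and 10.6 FPKM in control libraries. All 9 light libraries lay below all control libraries for CPT1B, as for 93 of all genes tested (0.512%), but none of its differences passed the adjusted test. The edgeR test called 0 of the 7 brown fat genes tested in every comparison, with 0, 2, 1 and 2 at an unadjusted p below 0.05 in blue light, GL, RL and among the light groups, where the shares of all genes tested were 3.26%, 8.1%, 4.74% and 10.3%. Limma and DESeq2 also called 0 of them.

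Partners of LPL were described from a list of 23 genes, of which 21 were found and 16 could be tested. GPIHBP1, which carries LPL to the capillary wall, and the inhibitor ANGPTL8 were not analysed here. APOC3 and APOA5, made chiefly by the liver, were at 0 in all 12 libraries. The cofactor APOC2 had a count in 3 libraries, with at most 0.499 FPKM, in control 1. The inhibitor ANGPTL4 had 0.416, 0.299 and 0.385 FPKM in blue light, 0.286, 0.354 and 0.0920 FPKM in GL, 0, 0 and 0.0950 FPKM in RL, and 0, 0.150 and 0 FPKM in control libraries. ANGPTL4 thus stayed under 1 FPKM in all 12 libraries, with a highest count of 44. Blue light overlapped GL, whereas all blue light libraries lay above all RL and control libraries. The share of all genes with that pattern was not counted. The edgeR test gave ANGPTL4 an unadjusted p = 0.207 in blue light minus control and 0.322 among the light groups.

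LMF2, a relative of the lipase maturation factor LMF1, and SEL1L, a protein of endoplasmic reticulum quality control needed for LPL to leave the cell in mice, were called in no comparison. LMF2 ranged from 9.67 to 14.4 FPKM in blue light, 13.8 to 18.3 FPKM in GL, 9.48 to 16.0 FPKM in RL and 14.4 to 15.2 FPKM in control libraries. APOE, a ligand of lipoprotein receptors, was abundant and variable: 71.7, 477 and 257 FPKM in blue light, 1170, 407 and 1133 FPKM in GL, 316, 301 and 236 FPKM in RL, and 344, 538 and 674 FPKM in control libraries. GL 2 was the lowest library of its group for APOE, as for LPL, and the edgeR test among the light groups gave an adjusted p = 0.410.

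LIPG, the endothelial lipase related to LPL, had its highest value in RL, the group with the lowest mean of LPL. It had 0.164, 0.271 and 0.142 FPKM in blue light, 0.0502, 0.0529 and 0 FPKM in GL, 0.844, 0.900 and 3.98 FPKM in RL, and 0, 0.300 and 1.07 FPKM in control libraries. Every RL library lay above every blue light and GL library, as for 121 of all genes tested (0.666%). The edgeR test gave LIPG an adjusted p = 0.383 among the light groups. DESeq2 on the light libraries alone, where it called 246 genes, gave 3.378e-05. The edgeR test called 0 of the 16 partner genes in every comparison, with 1, 3, 0 and 6 at an unadjusted p below 0.05 in blue light, GL, RL and among the light groups, where the shares of all genes tested were 3.26%, 8.1%, 4.74% and 10.3%. Limma called 0, and DESeq2 called LIPG alone. The median log2 difference of the partner genes was −0.31 in blue light, 0.01 in GL and −0.18 in RL, beside 0.01, −0.02 and 0.00 for all genes tested.

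Other tissues that could carry LPL were described by their marker lists. Macrophage genes summed to 49.9 to 74.5 FPKM in blue light, 43.5 to 58.9 FPKM in GL, 48.2 to 65.0 FPKM in RL and 47.5 to 63.1 FPKM in control libraries. Skeletal muscle genes summed to 7.54 to 9.75 FPKM in blue light, 7.45 to 13.7 FPKM in GL, 6.59 to 12.0 FPKM in RL and 7.10 to 9.47 FPKM in control libraries. Both sums overlapped between all groups, but a few genes carried most of each. In the macrophage list LYZ had a mean of 41.4 FPKM over 12 libraries, against 0.123 FPKM for CD163 and 0.972 FPKM for CSF1R. In the muscle list TNNC1, NEB and CKMT2 led with means of 2.57, 1.73 and 1.53 FPKM, against 0.086 FPKM for CKM. The sums are thus not a measure of macrophage or muscle content. The sum of the lens list was higher in all control libraries than in all GL and RL libraries, and LPL was likewise higher in all control than in all RL libraries. Blue light 1 had the highest lens sum of all, 22191 FPKM, with 0.504 FPKM of LPL, and control 1 had more lens RNA than control 3 (7799 and 7156 FPKM) with less LPL. The part of lens RNA in the LPL values was not tested. Of the 2 control libraries high in LPL, control 2 had 55.8 FPKM of retinal genes and control 3 had 5.14 FPKM, near the lowest of all libraries. The part of retinal RNA in the LPL values was not tested either.

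Genes with a profile most like that of LPL were ranked by Pearson's r of log2(FPKM + 1) over 12 libraries, among 10647 genes with a symbol and a mean of 1 FPKM or more. The 8 closest were KIAA0232 (r = 0.890), MRPL17 (0.887), OSTM1 (0.883), CCDC92 (0.868), GNG11 (0.867), DUSP26 (0.865), ZCCHC9 (0.861) and OGFOD2 (0.854). The minimum of 1 FPKM kept 12 of the 20 fat-cell genes found out of this ranking. These coefficients are the highest of many and describe these libraries only.

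MRPL17, a protein of the mitochondrial ribosome, followed LPL most closely when both were taken as deviations from their group means (r = 0.924). MRPL17 had 44.0, 107 and 43.1 FPKM in blue light, 107, 88.8 and 122 FPKM in GL, 38.3, 47.8 and 36.7 FPKM in RL, and 41.6, 208 and 181 FPKM in control libraries. Its control 1 was low and its control 2 and 3 were high, as for LPL, and blue light 2 was the highest of its group for both genes. The next genes by that measure were METTL1 (0.910), KRT20 (0.889), ST13 (0.887), DDO (0.881), LXN (0.881), DPM3 (0.880) and ZPR1 (0.865). METTL1, a tRNA methyltransferase, had 7.08 FPKM in control 1, 12.9 FPKM in control 2 and 11.9 FPKM in control 3.

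**Figure D4:**
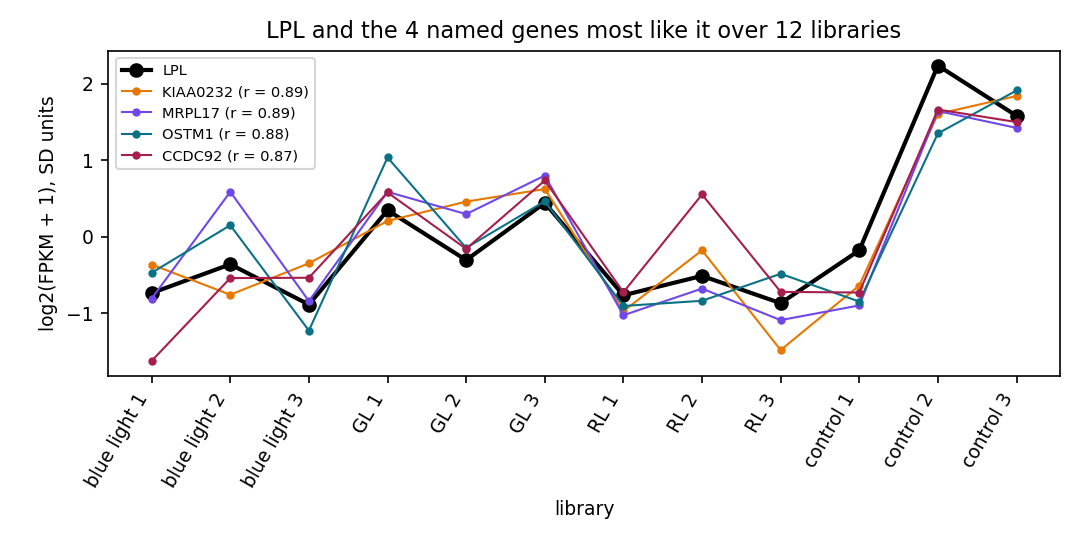
Profiles of LPL (black) and of the 4 genes most like it over 12 libraries, as log2(FPKM + 1) centred on each gene's mean and divided by its SD. All 5 genes have their highest values in control 2 and control 3 and are far lower in control 1, and Pearson's r with LPL is 0.890 for KIAA0232 and 0.887 for MRPL17.

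By its mean FPKM over all 12 libraries, most of it from control 2 and 3, LPL ranked 10208 of the 29076 genes listed, of which 21448 had a count in any library. In control 2, its highest library, LPL had a count of 4618, and in blue light 3, its lowest, a count of 69. The light libraries spanned a 10.9-fold range of LPL among themselves. FABP5, the fatty acid carrier of epithelia, was among the more abundant lipid genes, with 851 to 1360 FPKM in blue light, 689 to 836 FPKM in GL, 954 to 1326 FPKM in RL and 912 to 1161 FPKM in control libraries. The edgeR test called 0 of 12 lipid droplet genes and 0 of 13 PPAR target genes in any comparison, as did limma and DESeq2. At an unadjusted p below 0.05 there were 0, 2, 1 and 2 droplet genes and 0, 0, 0 and 1 PPAR target genes in blue light, GL, RL and among the light groups, beside the same shares of 3.26%, 8.1%, 4.74% and 10.3%.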

How the data were processed

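RNA from 12 rabbit cornea samples was sequenced, and for each library the authors deposited the estimated count of every gene beside its FPKM, as the file headers name them. Per the labels' protocols, libraries were made with a SMARTer mRNA kit. The submitters' processing notes name GRCm38 and mm10, mouse builds, whereas the table places genes on rabbit sequences; the aligner, counter and strand setting are not stated there. The table places LPL on chromosome 15 (4554032 to 4582612, plus strand), ADIPOQ on chromosome 14 (82535888 to 82546612, plus), FABP4 on chromosome 3 (97155361 to 97159722, minus) and CIDEA on chromosome 9 (49848683 to 49870803, minus), in a build that is not named. These are whole gene spans, and no exon or UTR annotation was used.

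Estimated counts were whole numbers and were tested with edgeR 4.0.16 (glmQLFit, glmQLFTest, TMM, filterByExpr; R 4.3.3), with 4 group means over all 12 libraries and Benjamini-Hochberg adjustment over 18171 genes. This replaced limma on FPKM, which stayed an alternative (3.58.1) beside DESeq2 1.42.0. For the comparison among the light groups, DESeq2 was fitted to the light libraries alone. Zero counts, listed with an FPKM of 0.0001, were set to 0. The detection floor of 3 fragments corresponds to 0.173 to 0.273 CPM and covers counting error only; libraries carry no molecular identifiers. Single genes were tested by exact permutation and correlations by 100000 resamples (scipy 1.17.1). The fit was tested on simulated data.

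The 6 genes, the marker lists and the tests were chosen with earlier results of these data known. From each list the text could name the genes past the threshold, the 3 most abundant and the 3 with the smallest p, and for likeness the 8 highest coefficients. Other list genes were named after their values were seen, because they define a cell type, lie at or near 0 or stand out in control 2 or 3. Another 10 list genes were matched by gene identifier. No sequence of the 4 genes was used here.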

Additional observations from a re-analysis of the deposited data

How the results depend on the processing

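LPL stayed lower in each light group than in control under the edgeR and limma alternatives run. Its log2 difference was −2.46 (blue light) and −2.53 (RL) by limma on log2(FPKM + 1), a scale that shrinks low levels, and −2.56 (blue light) with the library set as a covariate; in all other settings it moved by less than 1 SD between replicates. Leaving out 1 library gave −4.84 to −3.31 in blue light, −2.65 to −1.28 in GL and −4.83 to −3.47 in RL, each nearest to 0 without control 2. Without the 3 libraries with retinal RNA, chosen after seeing the data and including control 2, it was −3.15, −1.55 and −3.47.

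Calls over all genes were 3, 10, 2 and 12 (blue light, GL and RL minus control, and among the light groups). Limma on log2(FPKM + 1) gave 1 in RL and 23 among the light groups, and on log2(FPKM + 0.1) 5 in blue light and 21 among the light groups. DESeq2 gave 29, 147, 81 and, from the light libraries alone, 246. Without the 3 libraries there were 1 in blue light, 1 in GL and 0 among the light groups by edgeR (501 at an unadjusted p below 0.05). Leaving out 1 library gave 2 to 10, 3 to 21, 2 to 9 and 3 to 24. The cause of these shifts was not tested.

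With a replicate block the calls were 2, 11, 3 and 12 and the LPL differences −4.02, −1.66 and −4.13. Same-numbered libraries did not deviate together (correlations −0.0738 to 0.235, median 0.0125, 18 pairs), and 5 of 12 libraries were closest to their own number, so the numbers were not taken as pairs. At counts of at most 58, depth limits what CIDEA and ADIPOQ can show.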
